A study of Mus musculus with 4 samples.

Results

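In the liver of *Clock* mutant mice, 7 of the 611 mouse miRNAs on the array were singled out by name: mmu-miR-574-5p, mmu-miR-574-3p, mmu-miR-1187, mmu-miR-1196, mmu-miR-468, mmu-miR-706 and mmu-miR-207 (the prefix is left out from here on). They were chosen by their low signal on the *Clock* mutant array at ZT14, and because they are neither star strands nor members of the repeat-like miR-297, miR-466, miR-467 and miR-669 families. Their mutant to WT ratios at ZT14 are therefore a description and support nothing. The rule names no ZT2 value, but the members were listed with earlier results of these data known. Their ZT2 values therefore cannot be taken as independent of the choice.

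Liver miRNAs were measured on 4 one-colour Agilent arrays that lay on 1 slide, with 1 array for each genotype and time point. WT and *Clock* mutant mice were each sampled at ZT2, which is 2 h into the light, and at ZT14, which is 14 h after the lights came on and so lies in the dark. All mice were males of 6 to 8 weeks, caged singly under 12 h of light and 12 h of dark for 2 weeks before sampling, and the mutants carried the *Clock*Δ19 allele. Each array held liver RNA mixed from 3 mice. The strain, the origin of the WT mice and whether the mutants carried 1 or 2 copies of the allele are not given in the sources used here. A miRNA array does not read *Clock* itself, so the genotype labels could not be checked on the data. With 1 array per condition there was no replicate of any condition and no test was made. The only error given is the SD of repeated spots, which is technical and leaves out the spread between mice and between pools.

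A miRNA is cut from a hairpin precursor as a short strand, and its seed, bases 2 to 8, pairs with messenger RNAs and lowers their translation or stability. The arm taken from the 5′ side of the hairpin is named 5p and the arm from the 3′ side 3p, so miR-574-5p and miR-574-3p come from a single precursor. CLOCK pairs with BMAL1 and activates genes with E-box elements, and the *Clock*Δ19 protein still binds its partner but activates transcription poorly. In liver, this transcription loop drives daily rhythms of many metabolic genes.

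Mature sequences are shown because they tell which of the 7 miRNAs are alike in sequence and which are not. RefSeq entries (mouse GRCm38.p6) matched 5 of the 7 by exact name. Capitals mark the seed.
miR-574-5p: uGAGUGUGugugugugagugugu
miR-574-3p: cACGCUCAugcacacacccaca
miR-1187: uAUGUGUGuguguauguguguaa
miR-706: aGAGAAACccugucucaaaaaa
miR-207: gCUUCUCCuggcucuccucccuc
miR-574-5p and miR-1187 were made mostly of U and G, which were 91.3% and 82.6% of their bases. They shared a run of 11 bases, ugugugugugu, and their longest stretches of strictly alternating U and G were 13 and 11 bases, lengths that 1 and 2 of the 1679 mature mouse miRNAs in the table reached. The other sequences did not share this feature. miR-574-3p was rich in A and C (81.8%), miR-706 ended in 6 A and resembles the end of mouse B1 repeat elements, and miR-207 was rich in C and U. The 5 seeds differed from one another, and no other mature miRNA of the table carried any of them.

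The Mir574 hairpin is shown because both of its arms are in the set, and capitals mark the arms, 5p first.
Mir574: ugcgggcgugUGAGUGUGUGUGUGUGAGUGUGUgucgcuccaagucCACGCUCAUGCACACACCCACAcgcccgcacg
It lies at chr5:64970318-64970395 on the plus strand, within the spans of both Tlr6, an innate immune receptor gene, and Fam114a1. Mir1187 lies on the same chromosome, at chr5:82798944-82799065, 17.8 Mb away and outside any other gene of the table. Mir706 lies at chr6:120034228-120034311 within the span of Wnk1, which encodes a kinase that controls ion transport, and Mir207 at chr4:40722917-40722995 within that of Dnaja1, which encodes a co-chaperone of Hsp70. Mir468 lies at chr6:81896599-81896676, 38.1 Mb from Mir706 and in no other gene. Its hairpin is shown because its mature entry in the table, in capitals, is named mmu-miR-468-5p, and whether the array's miR-468 probes read that arm or the other was not settled by the names.
Mir468: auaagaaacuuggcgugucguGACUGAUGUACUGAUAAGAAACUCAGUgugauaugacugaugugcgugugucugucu
miR-1196 is named only.

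Each miRNA was read by 20 spots on an array, divided over 2 probes for miR-574-5p, miR-1187 and miR-1196 and 4 probes for the others, 22 probes in all. Signals are background-subtracted intensities in arbitrary units. For ratios each array was scaled by its 75th percentile, taken over 123 mouse miRNAs that every array detected. The WT arrays had percentiles of 537 units (ZT2) and 339.9 (ZT14), the mutant arrays 503 (ZT2) and 536 (ZT14). The WT array at ZT14 was thus the dimmest. Detection is the call of the scanner's software. It covered 193, 161, 138 and 142 of the 611 mouse miRNAs on the WT ZT2, mutant ZT2, WT ZT14 and mutant ZT14 arrays, and 7, 7, 7 and 3 of the 7 miRNAs described here. Negative control spots averaged 5.65 to 9.53 units, and 0 spots were saturated. The hepatocyte miRNAs miR-122, miR-192 and miR-194 were detected on every array, with a summed scaled signal of 96.0 to 122. Of the marker miRNAs of other tissues, 3 of 4 muscle miRNAs were detected on the WT ZT2 array and 0 on the other arrays, 2 or 3 of 3 red blood cell miRNAs were detected on each array (summed scaled signal 2.55 to 5.94), 2 or 3 of 5 leukocyte miRNAs, and 2 to 4 of 5 epithelial miRNAs. Their part in the results was not tested, and in pooled tissue fewer cells of a type and less of a miRNA per cell cannot be told apart.

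The miRNAs were lower on the mutant ZT14 array than on the WT ZT14 array, on the values that chose them. On the other 3 arrays each stayed within 2.16-fold after scaling, and miR-1196 had the widest range. miR-574-5p, far above background on every array, gave a mean signal of 309 units in WT at ZT2, 258 in the mutant at ZT2, 188 in WT at ZT14 and 72.0 in the mutant at ZT14. Its spots ranged from 134 to 250 units on the WT ZT14 array and from 43.9 to 98.3 on the mutant ZT14 array, so the spots of those arrays did not overlap. After scaling, miR-574-5p was 4.11-fold lower in the mutant at ZT14, a log2 ratio of -2.04 with a spot SD of 0.13. The size rested on the scaling, with -1.38 without scaling and -1.23 when scaled to spike-in control probes.

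miR-1187, the other U and G rich member, behaved alike in size. Its mean signals were 134, 113, 90.1 and 33.4 units in WT ZT2, mutant ZT2, WT ZT14 and mutant ZT14. Spots ran from 56.1 to 116 units in WT and from 23.4 to 45.2 in the mutant at ZT14, again without overlap. The scaled ratio was 4.26-fold lower, or -2.09 on the log2 scale with a spot SD of 0.23. Without scaling it was -1.43, and with spike-in scaling -1.28. These 2 miRNAs were the ones with most of their spots well above background on all 4 arrays, with 17 to 20 of 20 for miR-1187 and 20 of 20 for miR-574-5p.

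**Figure D1:**
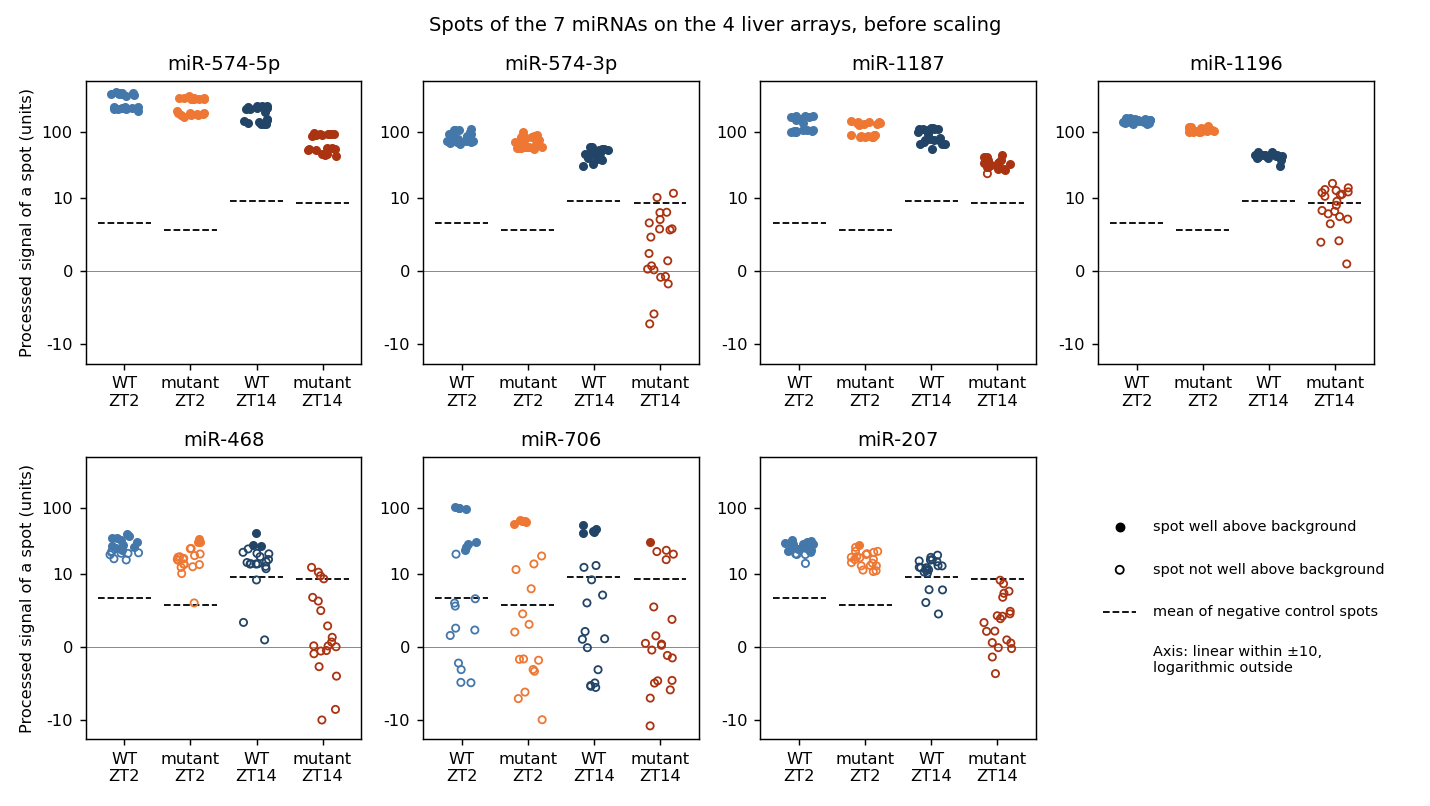
Processed signal of every unflagged spot of the 7 miRNAs on the 4 arrays (units, before scaling; the axis is linear within ±10 and logarithmic outside). Filled spots are well above background, open spots are not, and dashed lines give each array's mean over negative control spots. On the mutant ZT14 array, miR-574-5p and miR-1187 stay above the line, while the spots of miR-574-3p, miR-1196, miR-468 and miR-207 lie around or below it.

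miR-574-3p, the other arm of the Mir574 hairpin, was not detected on the mutant ZT14 array. Its signals were 86.8, 71.6 and 45.6 units on the WT ZT2, mutant ZT2 and WT ZT14 arrays and 3.08 on the mutant ZT14 array, where 5 of 20 spots were below 0 and 0 were well above background. All 4 of its probes showed this, with no overlap between the 2 ZT14 arrays. Its bound is set against the lowest signal called detected on the mutant array, 1.99 units, or its own where that was higher. On this floor it was 23.3-fold lower, which is not a lower limit because its own signal there was at background. That floor lay under the mean of the negative controls. The bound was 7.74-fold with that mean as the floor and 2.74-fold with the lowest probe well above background, 26.2 units. The last bound is smaller than the 4.11-fold of miR-574-5p, so a larger fall of the 3p arm than of the 5p arm depends on the floor.

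miR-1196 was lower at ZT14 than at ZT2 in WT too. Its mean signals were 149, 108, 43.6 and 9.36 units in the order above. On the mutant ZT14 array it was not detected and its mean lay at that of the negative controls, 9.27 units. Both probes were lower in the mutant without overlap. The bound was 7.34-fold against its own undetected signal, or 2.62-fold with the lowest probe well above background as the floor.

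miR-468 and miR-207 were dim everywhere. miR-468 gave 26.2, 18.3, 16.9 and 1.85 units, and miR-207 gave 24.8, 17.2, 12.2 and 3.24. Neither was detected on the mutant ZT14 array, and none of the 20 spots of miR-207 was well above background on the WT ZT14 array either. The bounds at ZT14 were 13.4-fold for miR-468 at the lowest detected signal and 5.95-fold for miR-207 at its own undetected signal. They were 2.88-fold and 2.08-fold at the mean of the negative controls, and 1.02-fold and none with the lowest probe well above background. With the strictest floor, their fall at ZT14 was not detectable over background.

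miR-706 rested on few spots. Its mean signals were 31.6, 16.8, 12.9 and 3.95 units, the last under the mean of the negative controls although the software called it detected. Of its 4 probes, 1 gave most of the signal, with 99.4 units in WT ZT2, 62.1 in mutant ZT2, 46.2 in WT ZT14 and 22.1 in mutant ZT14, and 2 lay at or near 0 on all arrays. The ratio over all probes was 5.15-fold lower at ZT14, a log2 ratio of -2.36 with a spot SD of 1.62, and the brightest probe alone gave -1.72. The scanner's own total for miR-706 on that array was 255 units against 5.63 for the sum of its probe totals, and on that total the ratio turned to 1.81.

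**Figure D2:**
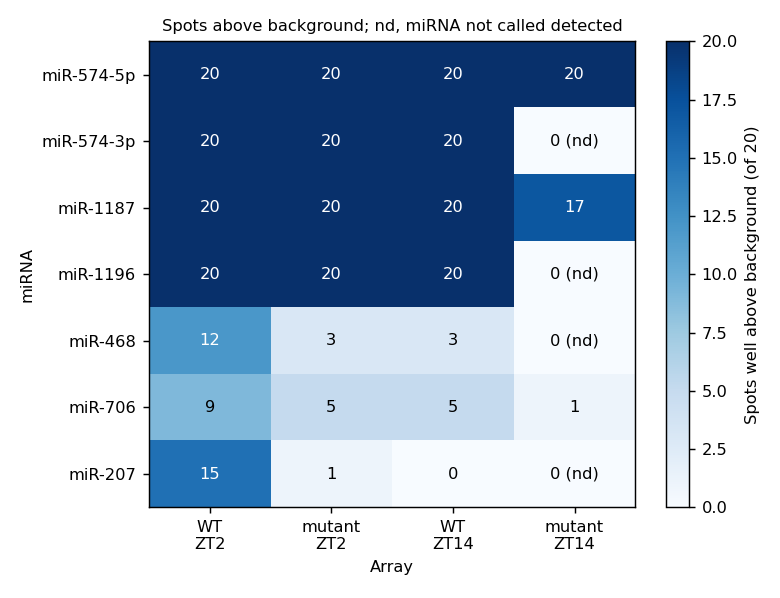
Number of the 20 spots of each miRNA (rows) that the software marked as well above background on each array (columns), with nd where the miRNA was not called detected. miR-574-5p holds 20 on all 4 arrays, miR-574-3p and miR-1196 drop from 20 to 0 on the mutant ZT14 array, and miR-468, miR-706 and miR-207 have 15 or fewer on every array.

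On this contrast, which chose them, 7 of 7 were reduced by 2-fold or more in the mutant, where 13.4% of the 157 miRNAs detected on either array were. The ratio was measured on both arrays for 3 of them, where 6.5% of the 123 miRNAs so measured passed 2-fold, and was a bound for 4. With the lowest probe well above background as the floor for the undetected miRNAs 5 were, and 4 once miR-706, whose signal lay under that floor on both ZT14 arrays, was put to it too. With detection taken from spots well above background 4 were, and with normexp background correction, which adds an offset and so shrinks the ratios of dim miRNAs, 3. The median log2 ratio of the 3 measured miRNAs was -2.09 and that of the 123 miRNAs measured on both arrays -0.03, which was 0.63 before scaling. At the probe level, 21 of the 22 probes were lower in the mutant, on the contrast that chose their miRNAs. The share of all probes that were lower was not counted, so this count is not read as a result. Of the 22, 17 had no spot in the range of the other array (16 before scaling), which held for 25.7% of the probes of all detected miRNAs. Over spots in array rows 1 to 96 and over spots in the rows after 96 of 192, the log2 ratios were -2.05 and -2.04 for miR-574-5p and -2.12 and -2.11 for miR-1187, of like size in both parts of the array. The other 5 had mean signals at background on the mutant array, where such ratios are not exact, although the brightest probe of miR-706 gave 22.1 units there. On that array the scaled signals in the 2 sets of rows were 0.0052 and 0.0097 for miR-574-3p, 0.0142 and 0.0208 for miR-1196, 0.0057 and -0.0059 for miR-468 and 0.0042 and 0.0071 for miR-207. For miR-706 they were 0.0112 and 0.0101, over the probes with unflagged spots on both ZT14 arrays.

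The 2-fold line at ZT14 also took in 3 other miRNAs that are neither star strands nor of the 4 repeat-like families. These were miR-802 with -1.21, and miR-302b and miR-455 with bounds of -2.15 and -2.66 on the log2 scale. At ZT2, miR-802 gave -1.85 and miR-455 a bound of -1.20, and miR-302b was detected on neither array. The members nearest to the line were miR-574-5p and miR-1187, with -2.04 and -2.09. Just outside lay miR-689 with -0.999 and miR-1224 with -0.86.

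At ZT2, on arrays that the rule does not name, the 7 miRNAs were detected in both genotypes. After scaling they were lower in the mutant, from 1.12-fold for miR-1187 to 1.76-fold for miR-706. These values cannot be taken as independent of the choice, since earlier results of these data were known. None of the 7 reached a 2-fold change in either direction. Of the 194 miRNAs detected on either array, 8.25% were at least 2-fold lower and 0.0% at least 2-fold higher. All 7 scaled ratios were below 0, as were 60.0% of the 160 miRNAs measured on both arrays. miR-574-5p, miR-574-3p and miR-1187 were within 0.20 of equal, with log2 ratios of -0.17 (spot SD 0.09), -0.19 (0.14) and -0.16 (0.11). miR-1196 gave -0.37 (0.10), miR-468 -0.42 (0.37), miR-207 -0.43 (0.34) and miR-706 -0.82 (0.36). Each of the 7 exceeded its spot SD. The share of the 160 miRNAs that did was not counted, so this is not read as particular to the 7. The median of the 7 was -0.37 against -0.07 over the 160 miRNAs. After scaling, all 22 probes were lower in the mutant at ZT2. The share of all probes that were lower was not counted, so this count is not read as particular to the 7 miRNAs. Of the 22, 10 were lower without overlap of the spots, against 18.5% of all probes. Before scaling 14 were, where the share of all probes was not counted.

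The sign at ZT2 rested on the scaling for some of them. With the percentile taken over all mouse miRNAs, which moved the median of the 160 to 0.24, 3 of the 7 were above 0. In the deposited log2 table, where that median was 0.74, 4 were above 0, with 0.64 for miR-574-5p, 0.62 for miR-574-3p, 0.65 for miR-1187 and 0.44 for miR-1196. Under both of these scalings 7 of 7 stayed below the median of all miRNAs, and under quantile normalization 6 of 7 did. The scanner's total signal placed miR-468 at 2.28 and miR-207 at 1.67, where the sums of their probe totals were far smaller than the software's own totals (24.6 against 187 units for miR-468 in the mutant).

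**Figure D3:**
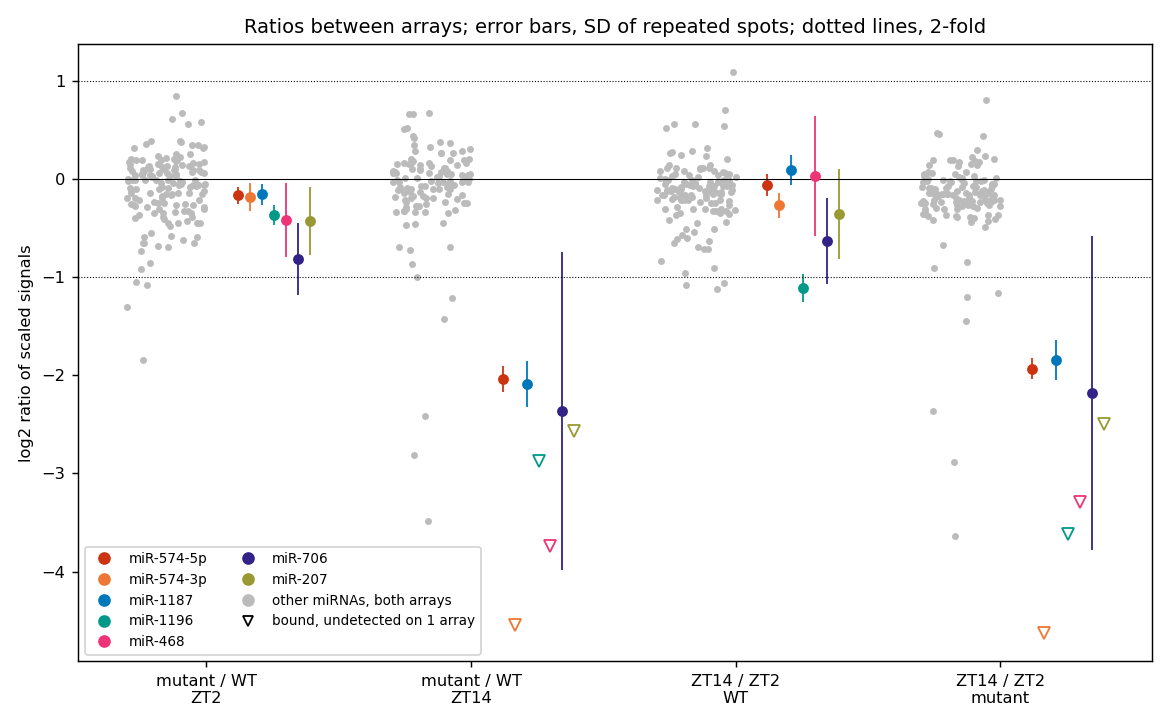
log2 ratios of scaled signals for 4 comparisons (columns). Grey points are the other miRNAs measured on both arrays, coloured points the 7 miRNAs with the SD of repeated spots, open triangles bounds for miRNAs undetected on 1 array (floor at the lowest detected signal), and dotted lines mark 2-fold. The 7 miRNAs lie between -0.82 and -0.16 at ZT2 in the mutant to WT comparison (3 of them above 0 with the percentile taken over all mouse miRNAs) and at -2.04 or lower at ZT14.

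**Figure D4:**
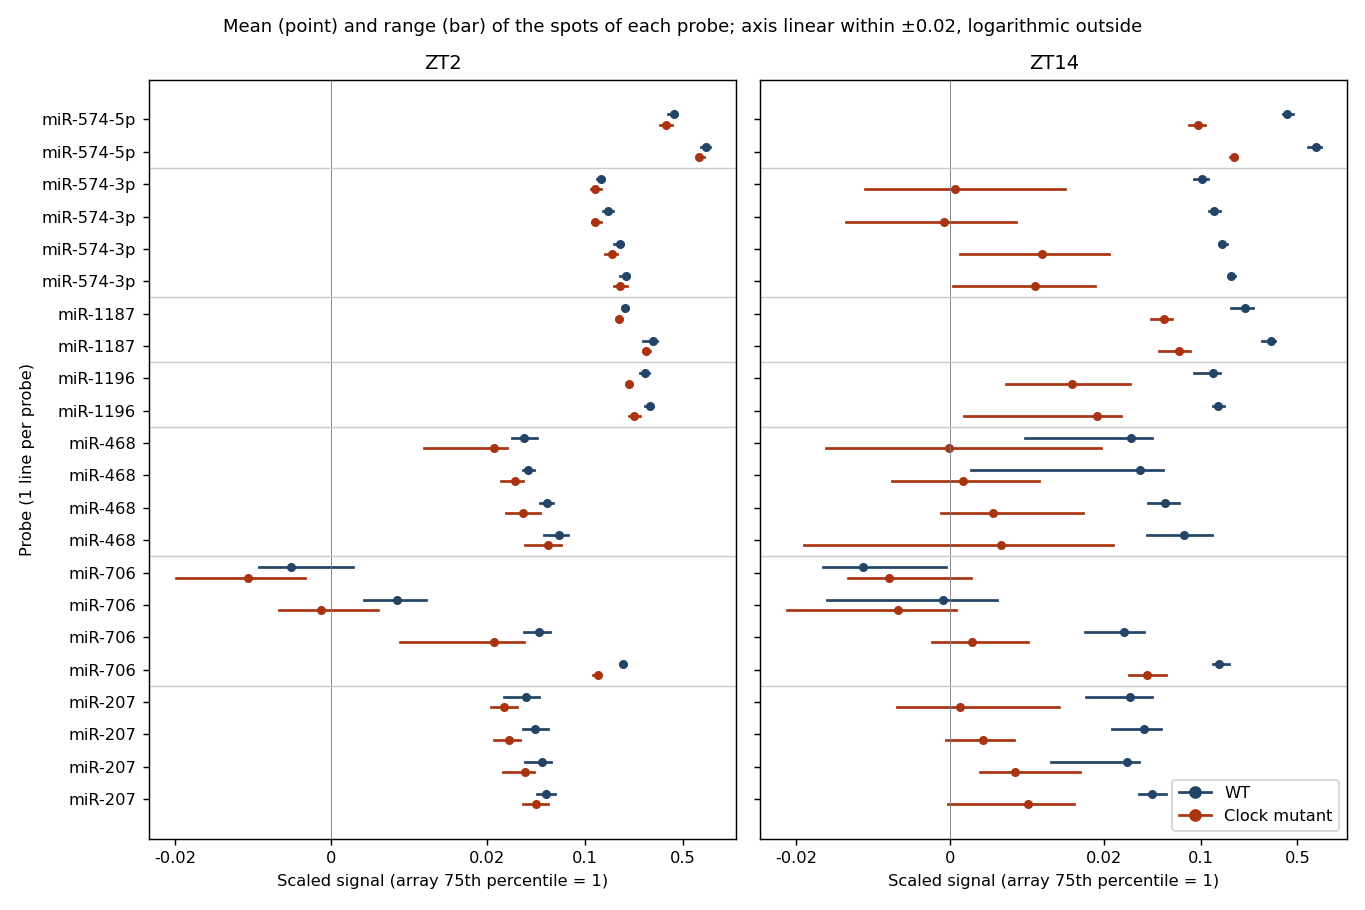
Scaled signal of each of the 22 probes in WT and *Clock* mutant liver at ZT2 and ZT14 (points, mean; bars, range of its spots; array 75th percentile = 1; the axis is linear within ±0.02 and logarithmic outside). At ZT2 10 probes are lower in the mutant without overlap (18.5% of all probes are), and at ZT14 17 are (25.7% of all). Among the probes of miR-706, 2 lie near 0 throughout.

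From ZT2 to ZT14 in WT liver, 6 of the 7 miRNAs stayed within 2-fold after scaling. The WT ZT14 array is part of the contrast that chose the members, so these values are a description too. miR-1196 alone passed 2-fold, at 2.16-fold lower at ZT14 (log2 ratio -1.11, spot SD 0.14), where 6.7% of the 194 miRNAs detected on either WT array were at least 2-fold lower. Both of its probes were lower without overlap, as were 20.9% of all probes. With the array percentile taken over all mouse miRNAs, with the median as the scale, after quantile normalization and after normexp correction, 0 of the 7 passed 2-fold. Without scaling 3 did and with spike-in scaling 4, and without scaling all 7 were below 0, from -1.77 to -0.57 on the log2 scale, miR-1187 and miR-468 included, where the median of all miRNAs was -0.78. miR-706 gave -0.63 (spot SD 0.44), miR-207 -0.36 (0.46) and miR-574-3p -0.27 (0.13). miR-574-5p, miR-1187 and miR-468 lay within their spot SD of 0, with -0.06 (0.11), 0.09 (0.15) and 0.03 (0.61). The median over the 137 miRNAs measured on both WT arrays was -0.12, and 72.3% of them were below 0.

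In the mutant, the same step in time used the array that chose the members and is again a description. All 7 were at least 2-fold lower at ZT14 than at ZT2, where 13.5% of 163 miRNAs were, and 4 with every miRNA put at least at the lowest probe well above background, under which miR-468, miR-706 and miR-207 lay on both mutant arrays. miR-574-5p was 3.82-fold lower (log2 ratio -1.93, spot SD 0.11), miR-1187 3.59-fold (-1.84, 0.20) and miR-706 4.54-fold (-2.18, 1.60). The bounds were 24.7-fold for miR-574-3p, 12.3-fold for miR-1196, 9.77-fold for miR-468 and 5.66-fold for miR-207. With the lowest probe well above background they were 2.91-fold for miR-574-3p, 4.39-fold for miR-1196 and none for the last pair. Red blood cell miRNAs were also lower at ZT14 than at ZT2 in the mutant, with a summed scaled signal of 2.55 against 5.94 and log2 ratios of -1.21 for miR-451 and -1.45 for miR-144. miR-486 was detected on the mutant ZT2 array alone, with a bound of -1.22 over time in the mutant. In the mutant to WT comparison at ZT14, miR-451 and miR-144 gave -0.21 and -0.17, and at ZT2 they gave 0.84 and 0.37. From ZT2 to ZT14 in WT they gave -0.16 and -0.90. Their part in the members' values was not tested.

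The log2 ratio of mutant to WT at ZT14 minus that at ZT2 was -1.87 (spot SD 0.16) for miR-574-5p and -1.93 (0.25) for miR-1187, the 5th and 4th lowest values among the 123 miRNAs measured on all arrays. Both values hold the ZT14 ratio that chose the members. No value is given for miR-706, whose signal on the mutant ZT14 array lay under the mean of the negative controls.

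The profile over the 4 arrays was nearly shared by some members. Taking log2 scaled signals centred on each miRNA's mean, miR-574-5p and miR-1187 were 0.12 apart in Euclidean distance, the closest pair, while the arms of Mir574 were 2.29 apart with miR-574-3p at the floor. Against the median profile of the 7, the nearest of 131 other miRNAs detected on the WT ZT14 array were miR-466i at a distance of 0.29, miR-467f at 0.36, miR-669f at 0.38, miR-669c at 0.72 and miR-466c-5p at 0.76. All 5 belong to the repeat-like families that the choice of members left out. miR-466i, for example, gave 126, 99.6, 63.9 and 14.4 units in the order WT ZT2, mutant ZT2, WT ZT14, mutant ZT14. Distances rest on 4 arrays, and the centred median profile was 1.03, 0.50, 0.57 and -2.00 in that order. Only 3 of the 7 were detected on the last array. The value of -2.00 is that of miR-207, which was not detected there, so the median profile itself rests on a signal at background. The members were chosen to be low on the last array and the candidates had to be detected on the WT ZT14 array, so this likeness is a description. On the mutant ZT14 array miR-669f, miR-669c and miR-466c-5p were not detected, and their distances use signals that are bounds there.

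Of the 35 miRNAs of those families that are not star strands, most were detected on neither ZT14 array and have no ratio there. At ZT14, 9 were detected on either array and 9 of 9 were 2-fold lower in the mutant or more, with a median of -2.41, bounds included. At ZT2, 14 were detected and 0 were 2-fold lower. Of these, 4 were detected in WT alone and are bounds, and 10 of the 10 measured on both arrays were below 0, with a median of -0.27, where 60.0% of all miRNAs so measured were. With the percentile taken over all mouse miRNAs, 3 of the 10 were below 0. Of the remaining 141 miRNAs detected at ZT14, 5 were at least 2-fold lower. Only 4 of the 35 had a mature sequence in the RefSeq table by exact name, so their sequences were not compared with those of miR-574-5p and miR-1187.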

How the data were processed

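Liver RNA pools were read on Agilent one-colour miRNA arrays. The files deposited by the authors are the scans as read by Feature Extraction 10.7.1.1, each of which gives per spot a linear, background-subtracted intensity with flags for outliers and background and calls detection per miRNA. The authors also deposited a log2 table. All 611 mouse miRNAs in it equalled, within 0.001, the log2 of the sum over detected probes, or of 0.1 where undetected, minus a shift of 4.18, 3.27, -3.32 and -3.32 per array, so the tables of the time points were not put on one scale.

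Outlier spots (3.23% to 3.51%) were left out. Signals were averaged within probes, then over probes, and scaled by each array's 75th percentile. Ratios are log2. A miRNA detected on 1 of 2 arrays has a bound against the higher of its own signal and the lowest detected signal of the other array. Such a bound is not a strict lower limit, since it depends on the floor. No fit across miRNAs is reported, since a genotype fit would use the array that chose the members. The members, families and markers were chosen with earlier results of these data known. The miRNAs named are the 7 members, those next to the 2-fold line at ZT14 and the 5 nearest profiles. The planned sequence list was not made, because 5 of 7 members (71.4%) had a sequence. Ratios and counts were tested on simulated data, with changed miRNAs that were not dim on the WT ZT14 array and with its detection calls. That check does not cover members at background. The other settings tried, 17 in all, covered scaling, background, detection, floors, probe summaries and thresholds, and 2 floors were added after seeing the data. Normexp used limma 3.58.1 in R 4.3.3 with an offset of 50, and other steps pandas 2.3.3, numpy 2.4.6 and matplotlib 3.10.9 in Python 3.11.15. The number of arrays limits the precision.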

Additional observations from a re-analysis of the deposited data

Results flagged for a closer look

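For 2 of the miRNAs the change from ZT2 to ZT14 had opposite signs in the 2 genotypes after scaling. The WT values were within the spread of single spots. Their sign turned without scaling, so that no direction is shown in WT. For miR-1187 the log2 ratio was -1.84 in the mutant and 0.0869 in WT, the latter within its spot SD of 0.15. For miR-468 it was -3.29 in the mutant, as a bound at the lowest detected signal, and 0.031 in WT, within a spot SD of 0.61. Without scaling the WT values were -0.57 for miR-1187 and -0.63 for miR-468, the sign of the mutant. With 1 array per condition the difference was not tested, and both ZT14 arrays belong to the contrast that chose the miRNAs.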

How the results depend on the processing

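No paired analysis was possible because the conditions share a single replicate number, 1.

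The count of members that passed 2-fold in the mutant at ZT14, 7, became 4 where detection meant spots well above background, 3 where only miRNAs detected on both arrays were counted 3 with normexp correction and 4 with every member put at least at the lowest probe well above background, and was 5 to 7 otherwise. Among all mouse miRNAs the count at ZT14, 21, became 9, 8 and 6 under the same 3 settings and 11 with the floor at the lowest probe well above background. At ZT2 the count of members, 0, became 2 with the sum over detected probes and 1 at 1.5-fold. Among all mouse miRNAs the count at ZT2, 16, became 10 with the percentile over all mouse miRNAs, 5 after quantile normalization, 1 with normexp, 33 with the scanner's total signal, 26 with the sum over detected probes, 6 with the brightest probe, 9 in the authors' table, 2 with detection from spots well above background, 10 with the floor at the negative controls, 5 with that at the lowest probe well above background, 4 for miRNAs detected on both arrays, 34 at 1.5-fold and 8 at 3-fold.

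For the change from ZT2 to ZT14 in WT, the count of members, 1, became 3 without scaling, 4 with spike-in scaling, 2 with the sum over detected probes and at 1.5-fold, and 0 with the median, the percentile over all mouse miRNAs, quantile normalization, normexp and at 3-fold. In the mutant the count, 7, became 4 where detection meant spots well above background, 3 where only miRNAs detected on both arrays were counted, 2 with normexp and 4 with every member at least at the lowest probe well above background. The authors' table gave no value over time, since its time points carry different shifts. Of the ratios of single members, that of miR-706 at ZT14 reversed, to 1.81 with the scanner's total signal. Apart from settings whose construction sets the count (fewer miRNAs or another threshold), the cause was not tested. The ratio of miR-574-5p at ZT14 ranged from -2.09 to -1.23 and that of miR-1187 from -2.17 to -1.13. Signal over background limits miR-468, miR-706 and miR-207, which gave 12.2 to 31.6 units on the arrays other than the mutant ZT14 array.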
